A study of Mus musculus with 25 samples.

Results

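The hypothalamus of adult male mice that ate a hypercaloric diet after weaning was compared between sons of dams on the same diet and sons of dams on regular chow. The members are the 15384 genes with a mean normalized count of at least 10, of 24421 genes listed in the authors' deposited table of this comparison. The rule used only this mean over all libraries, and 9037 genes fell under it. All animals were wild-type C57BL/6J mice of 3 months of age. One group, coded 3A, holds 3 samples of males whose dams received the hypercaloric diet (HCD, a high-sucrose diet with 52% fat) from 1 month before mating through pregnancy and lactation, and which were weaned onto HCD themselves. The other group, coded 5A and called the control in the labels, holds 3 samples of males whose dams received the regular chow diet (RD) over that time, and which were likewise weaned onto HCD. Both groups therefore ate HCD from weaning until tissue was taken, and by the labels they differed in the diet of the dam. These are 6 of the 25 samples of the study, which has 8 groups defined by sex, weaning diet and the diet of the dam. The labels do not say whether the 3 males of a group were littermates, so the p-values describe the spread among these animals only.

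Each gene is described by 3 values of the authors' deposited table: the mean normalized count over the libraries of the comparison, the log2 fold change with its standard error (SE), and the p-value adjusted over all tested genes by the Benjamini-Hochberg method. A positive log2 fold change was read as higher in sons of HCD dams, because the labels name 5A as control and 3A as comparison. The table does not name the numerator, and if this reading were wrong all signs of the table would turn together. Values of single libraries are not given, because no library column could be tied to a label. Group overlap and depth per sample are therefore not stated. The SE is given instead, which had a median of 0.27 and ranged from 0.11 to 0.33 on the log2 scale. Low SEs also occurred at low counts, as for the pituitary hormone gene Gh, with 0.11 at a mean normalized count of 21.4. A small SE, or a narrow interval made from it, therefore need not mean high precision.

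The hypothalamus holds small groups of neurons that control feeding, body weight, arousal and hormone release through secreted peptides. Oxytocin and corticotropin-releasing hormone are made mainly in the paraventricular nucleus, whose neurons depend on the transcription factors Sim1 and Otp. Melanin-concentrating hormone and orexin are made in separate neurons of the lateral hypothalamus, and both peptides promote feeding and act on arousal.

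The sequence just upstream of 5 genes is shown because 4 of them are the peptide genes with the most negative fold changes and the fifth, Mif, is an inflammatory mediator gene with a positive one. Each run is the 100 bases before the start in RefSeq's promoter table (build GRCm38.p6), 5′ to 3′ on the strand of the gene. Capitals mark the letters TATAA, or their reverse complement TTATA, within the 50 bases before the start. The Oxt run is at chr2:130576069-130576168, plus strand, that of Pmch at chr10:88090972-88091071, plus strand, that of Hcrt at chr11:100762932-100763031, minus strand, that of Trh at chr6:92244651-92244750, minus strand and that of Mif at chr10:75860278-75860377, minus strand.
Oxt: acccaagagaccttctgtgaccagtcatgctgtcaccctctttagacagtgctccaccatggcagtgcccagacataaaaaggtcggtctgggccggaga
Pmch: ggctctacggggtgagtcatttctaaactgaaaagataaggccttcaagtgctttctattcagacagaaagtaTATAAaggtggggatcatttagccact
Hcrt: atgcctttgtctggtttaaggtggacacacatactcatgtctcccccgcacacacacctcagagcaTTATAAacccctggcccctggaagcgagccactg
Trh: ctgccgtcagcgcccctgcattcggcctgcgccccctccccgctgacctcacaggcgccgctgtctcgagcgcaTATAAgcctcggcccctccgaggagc
Mif: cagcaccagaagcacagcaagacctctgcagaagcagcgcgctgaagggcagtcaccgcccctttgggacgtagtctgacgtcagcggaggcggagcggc
The motif was found for Pmch, Hcrt and Trh, and not for Oxt and Mif. Of all 32851 promoters in that table, 6.36% held it in this window, and 4.63% of the 11627 tested genes with an entry did. Among genes called below, 4 of 15 with a negative fold change (Hcrt, Myoc, Pmch and Sim1) and 2 of 5 with a positive one (Ckm and Gstp1) held it. A match is a description of the letters only.

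With the threshold set at 0.05 for the adjusted p-values of the authors' deposited table, 25 of 15384 genes (0.163%) were called, of which 18 (0.117%) were lower and 7 (0.0455%) higher in sons of HCD dams. With the Wald values rescaled by their robust spread, 3 genes (Oxt, Pmch and Hcrt) stayed under the threshold. The lower genes were led by the feeding peptide genes Oxt, Pmch and Hcrt, and the higher ones by Ckm, Erdr1, Chrnb4 and Gabra6. The highest adjusted p among called genes was 0.0446 and the lowest among the others 0.0575. Without adjustment, 1253 genes had p under 0.05, 526 positive (3.42% of those tested) and 727 negative (4.73%). Over all tested genes the median log2 fold change was -0.01 and the 5th and 95th percentiles were -0.56 and 0.48. An absolute log2 fold change above 1 was reached by 56 genes, 40 of them negative.

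**Figure D1:**
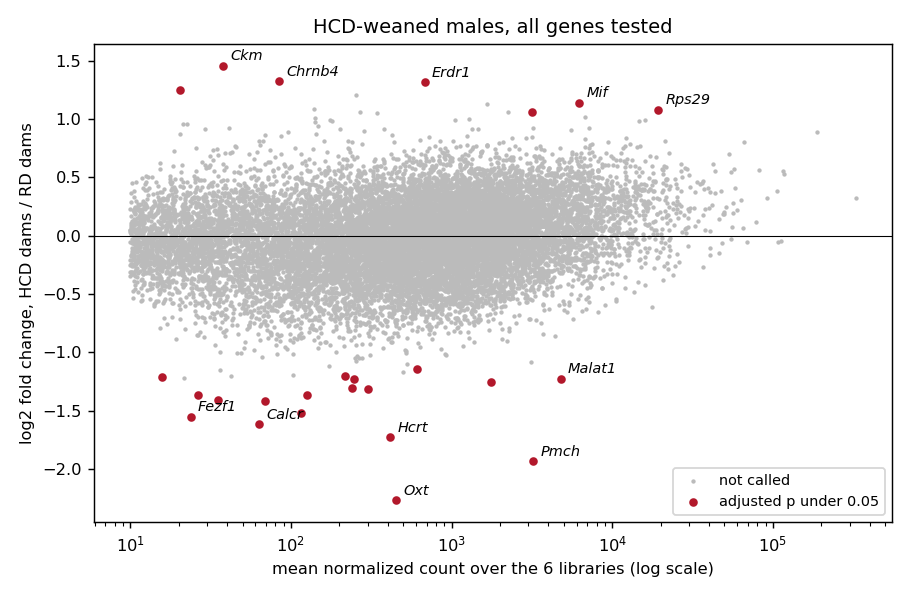
Log2 fold change (HCD dams over RD dams) against the mean normalized count on a log axis for the 15384 tested genes, with the 25 called genes marked. The most negative called genes are Oxt at -2.27, Pmch at -1.93 and Hcrt at -1.73. Their mean normalized counts are 453, 3235 and 416, beside a median of 610 over all tested genes.

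Oxt, the gene of oxytocin (chr2:130576173-130577054 in the GRCm38 annotation), had the most negative value. Its log2 fold change was -2.27 ± 0.31 (SE) in the authors' deposited table, a 4.82-fold lower level in sons of HCD dams, with an adjusted p of 7.05e-09 in that DESeq analysis. The 95% interval ran from -2.88 to -1.65. Pmch, the gene of melanin-concentrating hormone (chr10:88091072-88092375), was 3.82-fold lower at -1.93 ± 0.30 (SE; adjusted p = 1.23e-06) per the authors' deposited table. Hcrt, the gene of orexin (chr11:100761069-100762931), was 3.31-fold lower at -1.73 ± 0.32 (SE; adjusted p = 0.000519) per the authors' deposited table. Per kilobase of transcript, the mean normalized counts were 4319 for Pmch, 843 for Oxt and 709 for Hcrt. In a bulk sample, fewer neurons of a type and less RNA in each of them cannot be told apart. Upstream, the letters TATAA stood in the printed Pmch and Hcrt runs.

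**Figure D2:**
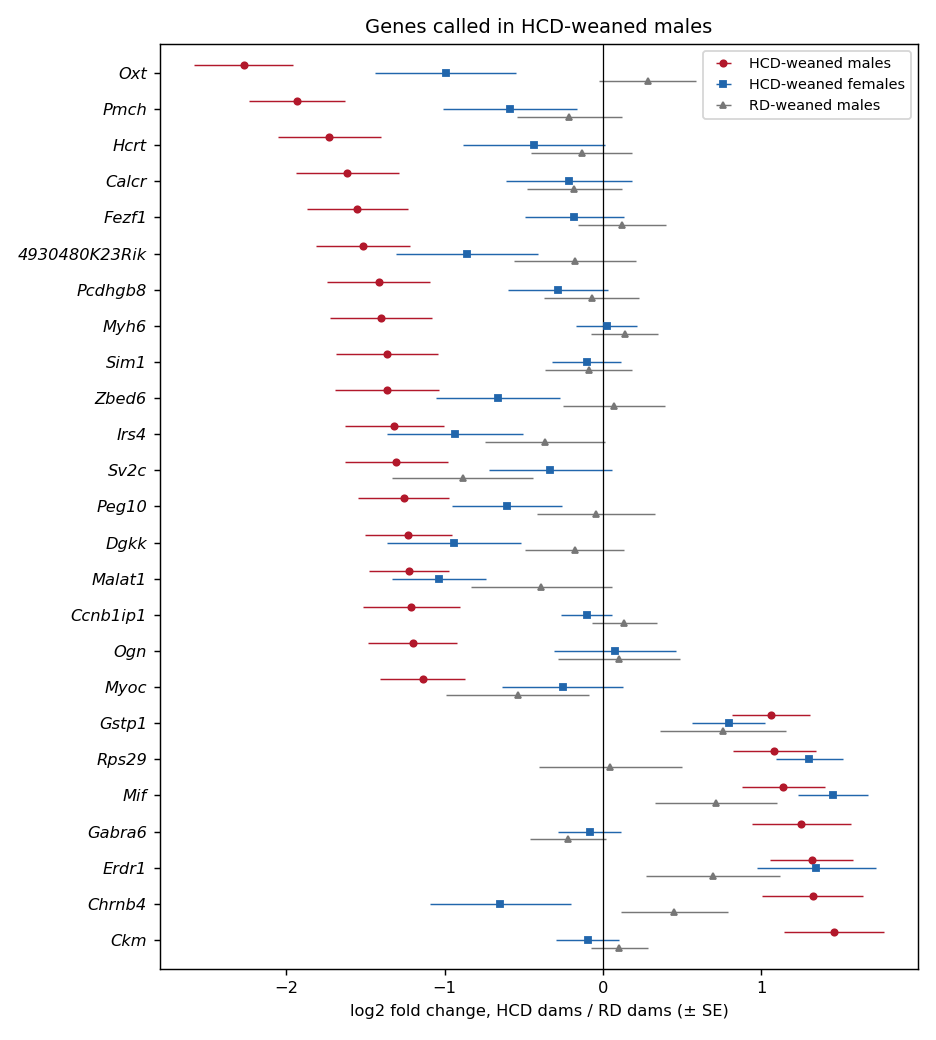
Log2 fold change (HCD dams over RD dams, bars ± SE) of the 25 genes called in HCD-weaned males (circles), with the same genes in HCD-weaned females (squares) and RD-weaned males (triangles). In HCD-weaned males the 18 negative genes run from Oxt (-2.27) to Myoc (-1.14), and the 7 positive genes from Gstp1 (1.06) to Ckm (1.46). Fezf1, Sim1, Ckm, Myh6, Gabra6 and Ccnb1ip1 had mean normalized counts under 10 in HCD-weaned females and were not tested there.

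This and the following gene lists were chosen with earlier results of these data known. The list of feeding and neuroendocrine peptides had 34 tested members, of which 13 were positive and 21 negative. Its median was -0.11, beside -0.01 over all tested genes. Oxt, Pmch and Hcrt were its only called members, beside 0.163% of all tested genes. Counting Oxt, Pmch and Hcrt, 11 members were negative and 3 positive at an unadjusted p under 0.05, against 4.73% and 3.42% of all tested genes. Trh, the gene of thyrotropin-releasing hormone, stood at -1.17 ± 0.31 (SE; adjusted p = 0.0791) and Crh, the gene of corticotropin-releasing hormone, at -0.97 ± 0.30 (SE; adjusted p = 0.266) per the authors' deposited table. Avp, the vasopressin gene next to Oxt on chromosome 2, stood at -0.59 ± 0.25 (SE; adjusted p = 0.536) per the authors' deposited table. Nts, the neurotensin gene, had -0.71 ± 0.28 (SE) and Pdyn, the prodynorphin gene, -0.70 ± 0.28 (SE) in the authors' deposited table. The positive end of the list was held by Cartpt, which encodes the appetite-lowering CART peptide, at 1.13 ± 0.32 (SE; adjusted p = 0.135), and Cck, the cholecystokinin gene, at 0.92 ± 0.27 (SE; adjusted p = 0.221) per the authors' deposited table. The arcuate feeding genes did not pass the test: Npy stood at 0.36 ± 0.26 (SE), Agrp at -0.09 ± 0.29 (SE) and Pomc at -0.52 ± 0.33 (SE) in the authors' deposited table. The list also held the orphan receptor gene Gpr101, at -0.96 ± 0.31 (SE; adjusted p = 0.307) per the authors' deposited table.

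**Figure D3:**
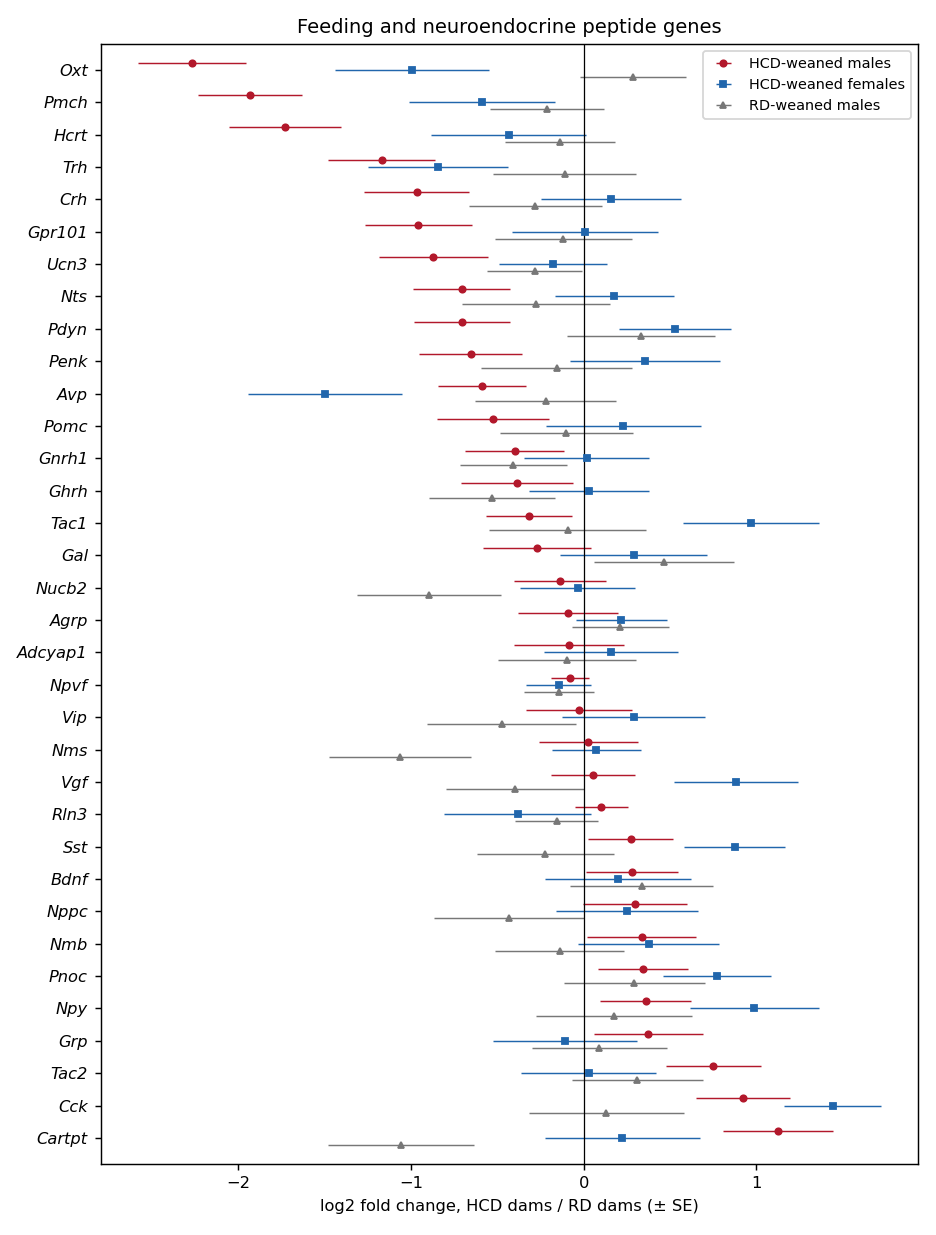
Log2 fold change (HCD dams over RD dams, bars ± SE) of the 34 tested peptide genes in HCD-weaned males (circles), HCD-weaned females (squares) and RD-weaned males (triangles). In HCD-weaned males Oxt, Pmch and Hcrt lie at -2.27, -1.93 and -1.73, and Cartpt at 1.13.

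The receptors of these peptides did not pass the test. Oxtr, the oxytocin receptor gene, stood at -0.09 ± 0.32 (SE), Mchr1, the receptor gene of melanin-concentrating hormone, at -0.17 ± 0.28 (SE), and the orexin receptor genes Hcrtr1 and Hcrtr2 at 0.17 ± 0.31 (SE) and -0.24 ± 0.31 (SE) in the authors' deposited table. Of 38 tested genes of peptide, leptin and insulin receptors, 2 were called, beside 0.163% of all tested genes, and the median was -0.17. At an unadjusted DESeq p under 0.05, 5 were negative and 2 positive, against 4.73% and 3.42% of all tested genes. Calcr, the calcitonin receptor gene (chr6:3685680-3764714), which binds amylin together with accessory proteins, was 3.06-fold lower at -1.61 ± 0.33 (SE; adjusted p = 0.00191) per the authors' deposited table. Irs4, an adaptor of insulin and growth factor receptors on chromosome X (chrX:141710998-141725263), was 2.49-fold lower at -1.32 ± 0.31 (SE; adjusted p = 0.0185) per the authors' deposited table. Ramp3, an accessory protein of the calcitonin receptor family, had a positive value of 0.85 ± 0.29 (SE; adjusted p = 0.356) per the authors' deposited table. The leptin receptor gene Lepr stood at -0.26 ± 0.31 (SE) and the insulin receptor gene Insr at -0.43 ± 0.28 (SE) in the authors' deposited table.

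None of the 23 tested genes of leptin and insulin signalling was called by DESeq in the authors' deposited table, beside 0.163% of all tested genes. Within this list 1 had an unadjusted p under 0.05, beside 8.14% of all tested genes. That gene was Gsk3b, a kinase restrained by insulin, at -0.69 ± 0.27 (SE; adjusted p = 0.489) per the authors' deposited table. The steroid and thyroid hormone receptor list had 9 of 11 tested members negative, a median of -0.39 and 0 called. Of its negative members, 3 had an unadjusted p under 0.05, against 4.73% of all tested genes. They included the progesterone receptor gene Pgr at -0.70 ± 0.30 (SE) and the oestrogen receptor gene Esr1 at -0.63 ± 0.32 (SE) in the authors' deposited table.

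Transcription factors that pattern hypothalamic neurons were mostly negative. Of 24 tested members, 21 were negative, and 16 had a negative value at an unadjusted p under 0.05 against a background of 4.73%. The median of the list was -0.69, and 2 members were called, beside 0.163% of all tested genes. Fezf1, a factor of the ventromedial hypothalamus (chr6:23245044-23248362), was 2.93-fold lower at -1.55 ± 0.32 (SE; adjusted p = 0.00242) per the authors' deposited table. Sim1, required for neurons of the paraventricular nucleus (chr10:50894754-50989152), was 2.58-fold lower at -1.37 ± 0.32 (SE; adjusted p = 0.0185) per the authors' deposited table. Otp, which acts in the same lineage, stood at -1.22 ± 0.32 (SE; adjusted p = 0.0726) per the authors' deposited table. Nkx2-1 had -0.93 ± 0.32 (SE), Dlx2 -1.01 ± 0.31 (SE), Isl1 -0.73 ± 0.30 (SE) and Tbx3 -0.74 ± 0.31 (SE) in the authors' deposited table, none of them called. The 3 positive members included Sox14 at 0.14 ± 0.32 (SE) and Lhx9 at 0.19 ± 0.30 (SE) in the authors' deposited table. Mean normalized counts of these factors were low, at 23.7 for Fezf1, 26.5 for Sim1 and 21.5 for Otp in the authors' deposited table.

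Marker lists of some other brain regions and of the meninges had medians away from 0 as well. Over all tested genes, 4.73% were negative and 3.42% positive at an unadjusted DESeq p under 0.05, and 0.163% were called. All 17 tested striatum markers were negative, with a median of -0.59, 8 of them at an unadjusted p under 0.05 and 0 called by DESeq. Drd1, a dopamine receptor gene of striatal neurons, stood at -0.97 ± 0.32 (SE; adjusted p = 0.318) per the authors' deposited table. Of 19 meningeal fibroblast and collagen genes, 18 were negative with a median of -0.59, 13 of them at an unadjusted p under 0.05. One of these was called: Ogn, a matrix protein gene of the meninges (chr13:49608046-49624501), which was 2.30-fold lower at -1.20 ± 0.28 (SE; adjusted p = 0.0185) per the authors' deposited table. Myoc, the gene of the secreted protein myocilin (chr1:162639155-162649693), was 2.20-fold lower at -1.14 ± 0.27 (SE; adjusted p = 0.0185) per the authors' deposited table. Habenula markers had the opposite sign, with 9 of 10 positive, a median of 0.57 and 5 at an unadjusted p under 0.05. Chrnb4, a nicotinic receptor subunit gene of the habenula (chr9:55028154-55048779), was called at 1.32 ± 0.32 (SE; adjusted p = 0.0218), while Htr5b stood at 1.09 ± 0.30 (SE; adjusted p = 0.126) and Chrna3 at 0.92 ± 0.33 (SE; adjusted p = 0.4) per the authors' deposited table.

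Other tissue and neuronal marker lists showed smaller shifts. Thalamus markers had a median of 0.19, with 9 of 15 positive. Choroid plexus markers had a median of 0.03, with 4 positive and 1 negative at an unadjusted p under 0.05. Folr1, a folate receptor gene of the choroid plexus, stood at 0.82 ± 0.27 (SE; adjusted p = 0.323) per the authors' deposited table. The median over 20 markers of cortex and hippocampus was -0.10. Pan-neuronal markers had a median of 0.10, with 8 of 14 positive. Of the red blood cell genes, the 4 globin genes were listed at 0, while Alas2, of haem synthesis, had a mean normalized count of 190 and Bpgm 3807 in the authors' deposited table. The pituitary hormone genes Gh and Prl had mean normalized counts of 21.4 and 9.39 in the authors' deposited table. Some genes stand in more than one list, such as Penk (peptides and striatum), Tac2 (peptides and habenula) and Igf2 (imprinted and meningeal genes). The part of these other tissues in the values of the peptides and transcription factors was not tested.

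**Figure D4:**
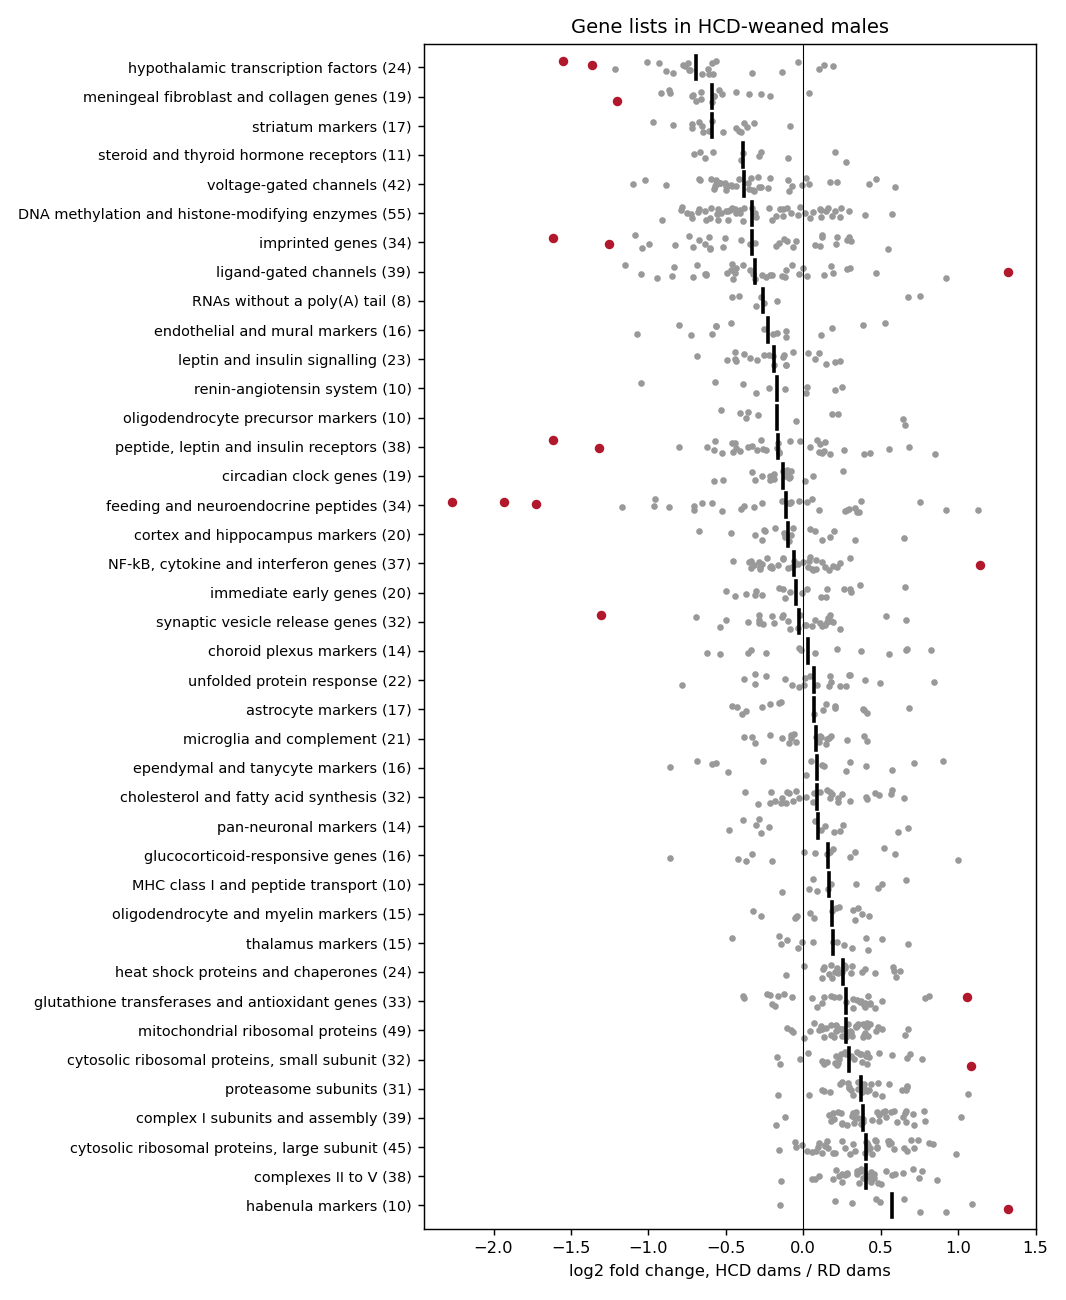
Log2 fold change (HCD dams over RD dams) of each tested member of the gene lists in HCD-weaned males, with called genes in red, the list median as a bar and the number of tested members in brackets. Medians of hypothalamic transcription factors (-0.69), striatum markers (-0.59) and meningeal genes (-0.59) lie at the negative end, and that of habenula markers (0.57) at the positive end.

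Other genes lower in sons of HCD dams included noncoding, imprinted and neuronal genes. Malat1, a nuclear long noncoding RNA (chr19:5795690-5802672), was 2.34-fold lower at -1.23 ± 0.25 (SE; adjusted p = 0.00242) per the authors' deposited table. 4930480K23Rik, a long noncoding RNA gene (chr14:69732784-69767113), was 2.86-fold lower at -1.52 ± 0.30 (SE; adjusted p = 0.00152) per the authors' deposited table. Peg10, an imprinted gene derived from a retrotransposon (chr6:4747306-4760517), was 2.39-fold lower at -1.26 ± 0.29 (SE; adjusted p = 0.0147) per the authors' deposited table. Sv2c, a synaptic vesicle protein gene (chr13:95954594-96132577), was 2.47-fold lower at -1.30 ± 0.32 (SE; adjusted p = 0.0355) per the authors' deposited table. Dgkk, a diacylglycerol kinase gene on chromosome X (chrX:6779306-6948363), was 2.34-fold lower at -1.23 ± 0.28 (SE; adjusted p = 0.0124) per the authors' deposited table. The other negative called genes were Zbed6, Myh6, Pcdhgb8 and Ccnb1ip1. Zbed6 is a zinc finger gene derived from a transposon, and Myh6 a cardiac myosin heavy chain gene. Pcdhgb8, of a cell adhesion family, is a polymorphic pseudogene in the annotation used, and Ccnb1ip1 acts in meiotic recombination. Their log2 fold changes in the authors' deposited table were -1.36 for Zbed6, -1.40 for Myh6, -1.41 for Pcdhgb8 and -1.21 for Ccnb1ip1. Mean normalized counts were 126 for Zbed6, 69.0 for Pcdhgb8, and only 35.0 for Myh6 and 15.7 for Ccnb1ip1. In HCD-weaned females, RD-weaned males and RD-weaned females the means were 0.851, 2.36 and 32.5 for Myh6. Those of Ccnb1ip1 were 0.116, 1.86 and 4.88 in the same order. Pcdhgb8 shares exons with other members of its protocadherin cluster, and Ccnb1ip1 overlaps Rpph1 in the annotation on the same strand, so reads of either gene may be uncertain.

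The 7 genes that were higher in sons of HCD dams included Chrnb4, described above with the habenula markers. Mif encodes macrophage migration inhibitory factor, a cytokine (chr10:75859353-75860240), and was 2.20-fold higher at 1.14 ± 0.26 (SE; adjusted p = 0.0147) per the authors' deposited table. Gstp1, a glutathione transferase gene (chr19:4035407-4037985), was 2.08-fold higher at 1.06 ± 0.25 (SE; adjusted p = 0.0181) per the authors' deposited table. Rps29, a protein of the small ribosomal subunit (chr12:69157722-69159186), was 2.12-fold higher at 1.08 ± 0.26 (SE; adjusted p = 0.0261) per the authors' deposited table. Erdr1 was 2.49-fold higher at 1.32 ± 0.26 (SE; adjusted p = 0.00159) per the authors' deposited table and had no entry in the annotation used. Ckm, the muscle creatine kinase gene (chr7:19404776-19422841), had 1.46 ± 0.32 (SE; adjusted p = 0.00737) and Gabra6, a GABA-A receptor subunit gene typical of cerebellar granule cells (chr11:42306437-42321072), 1.25 ± 0.31 (SE; adjusted p = 0.0393) per the authors' deposited table. Their mean normalized counts were only 37.7 for Ckm and 20.4 for Gabra6. In HCD-weaned females, RD-weaned males and RD-weaned females the means were 2.24, 0.239 and 2.09 for Ckm. Those of Gabra6 were 2.26, 14.8 and 1.24 in the same order. Mif, Gstp1 and Rps29 have near-identical copies or pseudogenes, so their counts are uncertain where reads could be split.

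Inflammation genes other than Mif did not pass the test. Of 37 tested genes of NF-kB, cytokine and interferon signalling, 15 were positive and the median was -0.06. Mif was the only member with an unadjusted p under 0.05, beside 8.14% of all tested genes. Il1a, an interleukin gene, stood at -0.45 ± 0.31 (SE), Nfkbia, an inhibitor of NF-kB, at 0.30 ± 0.26 (SE) and the receptor gene Tlr4 at -0.28 ± 0.33 (SE) in the authors' deposited table. Of 21 microglia and complement genes, 0 were called by DESeq, beside 0.163% of all tested genes, and the median was 0.08. An unadjusted p under 0.05 was reached by 0 of the 21, against 8.14% of all tested genes. A count of 0 called in a list of this size does not show that its genes were unchanged. Trem2, a microglial receptor gene, had 0.39 ± 0.26 (SE) and Aif1, a general microglial marker, 0.41 ± 0.29 (SE) in the authors' deposited table. MHC class I and peptide transport genes were positive in 9 of 10 members, with a median of 0.17 and Tap2, a peptide transporter subunit, at 0.66 ± 0.27 (SE; adjusted p = 0.509) per the authors' deposited table.

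Stress-related genes were likewise without called members apart from Gstp1. Glucocorticoid-responsive genes had a median of 0.16, and the metallothionein gene Mt1 stood at 1.00 ± 0.27 (SE; adjusted p = 0.114) per the authors' deposited table. Glutathione transferases and antioxidant genes were positive in 24 of 33 members with a median of 0.28. Heat shock proteins and chaperones were positive in 23 of 24 members with a median of 0.26. Genes of the unfolded protein response had a median of 0.07, with the secreted stress protein gene Creld2 at 0.85 ± 0.26 (SE; adjusted p = 0.251) per the authors' deposited table. Of 10 tested genes of the renin-angiotensin system 0 were called by DESeq, beside 0.163% of all tested genes. An unadjusted p under 0.05 was reached by 1 of the 10, beside 8.14% of all tested genes. That gene was Lnpep, of an angiotensin-binding peptidase, at -1.05 ± 0.32 (SE; adjusted p = 0.251) per the authors' deposited table. Immediate early genes had a median of -0.05 over 20 members.

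Genes of energy and protein turnover had mostly positive values in their lists. Complex I of the respiratory chain had 37 of 39 members positive with a median of 0.39, and 12 of them passed an unadjusted p of 0.05 against a background of 3.42% for positive genes. Ndufs7, a core subunit of complex I, came closest to the threshold at 1.02 ± 0.27 (SE; adjusted p = 0.085) per the authors' deposited table. Complexes II to V had 37 of 38 members positive with a median of 0.41, with the ATP synthase subunit genes Atp5l at 0.86 ± 0.31 (SE; adjusted p = 0.422) and Atp5d at 0.77 ± 0.26 (SE; adjusted p = 0.372) per the authors' deposited table. Cytosolic ribosomal proteins of the large subunit were positive in 41 of 45 members with a median of 0.41, and those of the small subunit in 29 of 32 with a median of 0.29. Rplp2, a large subunit gene, stood at 0.99 ± 0.28 (SE; adjusted p = 0.134) per the authors' deposited table. Proteasome subunits were positive in 30 of 31 members with a median of 0.37, and Psmb5, a catalytic subunit, had 1.06 ± 0.30 (SE; adjusted p = 0.124) per the authors' deposited table. Mitochondrial ribosomal proteins were positive in 46 of 49 members with a median of 0.28. Among these lists Rps29 alone was called.

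Genes with long transcripts had the opposite sign. When 14831 annotated genes were ordered by transcript length into 10 equal parts, the median log2 fold change was 0.25 in the part with the shortest transcripts, of which 81.1% were positive, and -0.38 in that with the longest, of which 8.83% were positive. In the shortest part 168 genes were positive and 10 negative at an unadjusted p under 0.05, and in the longest 4 were positive and 315 negative. The called genes followed the same order, with a median transcript length of 1644 bases for the 6 positive genes with a length, 4189 for the 18 negative ones and 3377 for all genes. Oxt, Pmch and Hcrt went against it, with transcripts of 537, 749 and 586 bases and negative values. With the trend of fold change on length and GC content removed, the medians were 0.22 for complex I and 0.22 for complexes II to V. They were 0.18 for the large ribosomal subunit, 0.10 for the small one and 0.11 for mitochondrial ribosomal proteins. Proteasome subunits then had 0.23, heat shock proteins 0.19 and unfolded protein response genes 0.03. Medians became 0.07 for glutathione transferases and antioxidant genes, 0.075 for MHC class I genes and 0.04 for glucocorticoid-responsive genes. For calls, the trend was removed from the Wald values instead, and the result was referred to the normal distribution. This left 16 genes called, among them Oxt, Pmch and Hcrt. It ended the calls of Mif, Gstp1, Rps29, Gabra6, Malat1, Peg10, Irs4, Sim1, Sv2c, Dgkk, Myh6 and Zbed6. Erdr1 had no length and could not be placed. The part of length in these values was not tested.

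**Figure D5:**
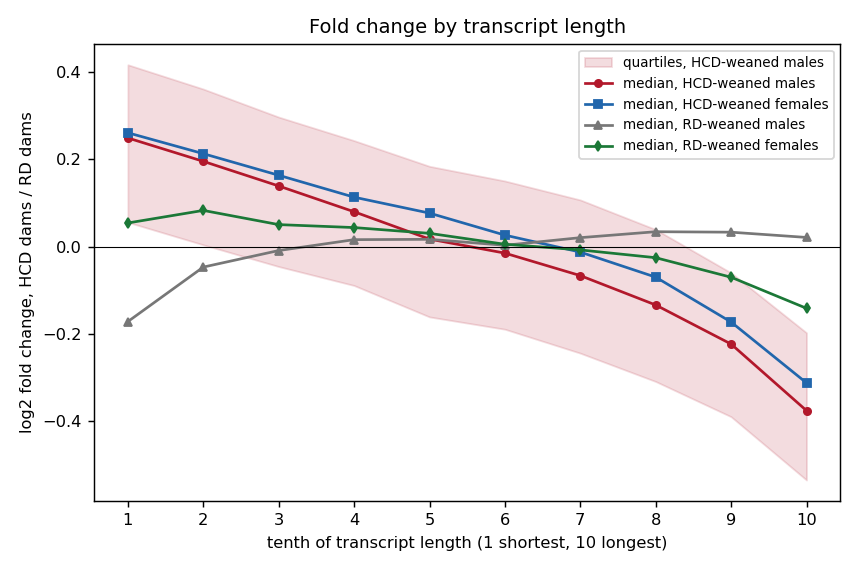
Median log2 fold change (HCD dams over RD dams) in 10 equal parts of the genes ordered by transcript length, for the 4 deposited tables of maternal diet, with the quartiles of HCD-weaned males shaded. In HCD-weaned males the median goes from 0.25 in the shortest part to -0.38 in the longest.

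Genes of chromatin, channels and synapses gave these values. DNA methylation and histone-modifying enzymes were negative in 40 of 55 members with a median of -0.33, which was -0.17 with the length trend removed. For Kmt2a, which encodes a methyltransferase acting on histones, the value was -0.91 ± 0.29 (SE; adjusted p = 0.266) per the authors' deposited table. Of these enzymes 0 were called by DESeq, beside 0.163% of all tested genes. At an unadjusted p under 0.05, 14 were negative and 1 positive, against 4.73% and 3.42% of all tested genes. Voltage-gated channel genes were negative in 35 of 42 members with a median of -0.38, or -0.10 with the trend removed. Scn3a, a sodium channel gene, had -1.10 ± 0.30 (SE; adjusted p = 0.0956) per the authors' deposited table. Ligand-gated channel genes had a median of -0.31, and their 1 called member, Chrnb4, was positive. Among the negative members were the GABA-A receptor subunit genes Gabrq at -1.05 ± 0.29 (SE; adjusted p = 0.124) and Gabre at -1.15 ± 0.32 (SE; adjusted p = 0.129) per the authors' deposited table. Synaptic vesicle release genes had a median of -0.03, with Sv2c alone called. The 8 tested RNAs without a poly(A) tail, among them histone genes, had a median of -0.26. Clustered protocadherins, a list written after values had been seen, were negative in 44 of 52 members with a median of -0.40.

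Imprinted genes, expressed from 1 parental copy, were negative in 24 of 34 members with a median of -0.33, or -0.16 with the trend removed. Calcr and Peg10 were called, beside 0.163% of all tested genes. At an unadjusted p under 0.05, 13 members were negative and 1 positive, against 4.73% and 3.42% of all tested genes. Peg3, a paternally expressed zinc finger gene, stood at -1.08 ± 0.31 (SE; adjusted p = 0.134) and Magel2, of the Prader-Willi region, at -0.999 ± 0.29 (SE; adjusted p = 0.202) per the authors' deposited table. Ndn, the neighbour of Magel2, had a positive value of 0.55 ± 0.27 (SE; adjusted p = 0.597) per the authors' deposited table.

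Glial and vascular lists had no called members, beside 0.163% of all tested genes. Astrocyte markers had a median of 0.07, oligodendrocyte and myelin markers 0.19, and oligodendrocyte precursor markers -0.17. Endothelial and mural markers had a median of -0.23, with 6 of 16 negative at an unadjusted p under 0.05, against 4.73% of all tested genes. Myh11, a smooth muscle myosin gene, stood at -1.07 ± 0.29 (SE; adjusted p = 0.111) per the authors' deposited table. Ependymal and tanycyte markers were mixed, with Tmem212 at 0.90 ± 0.27 (SE; adjusted p = 0.222) and Gpr50, an orphan receptor gene of tanycytes, at -0.86 ± 0.33 (SE; adjusted p = 0.456) per the authors' deposited table. Circadian clock genes were negative in 16 of 19 members with a median of -0.13, and Per3 had -0.52 ± 0.26 (SE; adjusted p = 0.607) per the authors' deposited table. Cholesterol and fatty acid synthesis genes had a median of 0.09, with Ebp at 0.65 ± 0.26 (SE; adjusted p = 0.509) per the authors' deposited table.

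The same maternal contrast was available in HCD-weaned females, with 3 samples in each group and none shared with the males. Of the 25 genes called in males, 19 were tested in the authors' deposited table of females, 17 had the same sign and 5 were called in both: Mif, Rps29, Gstp1, Erdr1 and Malat1. Of all 15043 genes tested in females, 229 (1.52%) were called. Over all 14947 genes tested in both tables, 72.8% had the same sign. HCD-weaned females also had the length trend, with a median of 0.26 for the shortest transcripts and -0.31 for the longest. Of the 5 genes called in both, Mif, Rps29, Gstp1 and Malat1 lost their call in males with the trend removed. Erdr1 had no length. The part of this trend in the shared signs was not tested. Mif stood at 1.45 ± 0.22 (SE; adjusted p = 1.33e-07) and Rps29 at 1.30 ± 0.21 (SE; adjusted p = 1.55e-06) in females in the authors' deposited table. The peptide genes were not called in females, where Oxt stood at -0.99 ± 0.45 (SE; adjusted p = 0.28), Pmch at -0.59 ± 0.42 (SE; adjusted p = 0.627) and Hcrt at -0.43 ± 0.45 (SE; adjusted p = 0.812) per the authors' deposited table. The male value minus the female value was -1.27 ± 0.55 (SE) for Oxt, -1.34 ± 0.52 (SE) for Pmch and -1.29 ± 0.55 (SE) for Hcrt. In a normal test of the difference with Benjamini-Hochberg adjustment, 0 of 14947 genes (0%) passed the threshold. An unadjusted p under 0.05 in this normal test was reached by 96 genes (0.642%). The differences divided by their SEs had a robust spread of 0.718, narrower than the normal reference, so the test was conservative. The count of 0 therefore does not show that the sexes were alike. Rescaled by its robust spread, the same test called 3 genes, Rpph1, Chrnb4 and Nwd2. Chrnb4 had one of the lowest unadjusted p-values of this difference (0.000319), with 1.32 in males and -0.65 in females in the authors' deposited tables. Medians of transcription factors (-0.03), meningeal genes (-0.06), striatum markers (0.12) and habenula markers (-0.08) in HCD-weaned females lay near 0, while complex I had 0.56 there. In RD-weaned males the medians were 0.08 for transcription factors, -0.10 for meningeal genes, 0.10 for striatum markers and 0.45 for habenula markers. In RD-weaned females they were -0.31, 0.05, 0.30 and -0.40 in the same order. Medians of complex I, complexes II to V and the large and small ribosomal subunits were -0.23, -0.26, -0.38 and -0.50 in RD-weaned males. Mitochondrial ribosomal proteins had -0.29 and proteasome subunits -0.10 there. In RD-weaned females the medians of these energy and protein lists ran from -0.05 to 0.08. The signs of the RD-weaned values rest on the order of the groups.

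In RD-weaned males the labels list 3 samples of sons of HCD dams and 4 of RD dams, and the sign rests on the order of the groups in the table. Of the 25 genes, 14 were tested there, 12 had the same sign and 0 were called by DESeq, beside 0.0851% of all genes tested in that table. Over all 12910 genes tested in both tables, 48.8% had the same sign. If the sign of the table of RD-weaned males were turned, these counts would be 2 of 14 and 51.2%. For Oxt and Pmch the authors' deposited table of RD-weaned males gives no adjusted p, and their values were 0.28 ± 0.31 (SE) and -0.21 ± 0.33 (SE). The mean normalized count of Oxt was 13.9 in that table, near the minimum for testing, beside 453 in HCD-weaned males, and that of Pmch was 1793. Hcrt stood at -0.14 ± 0.32 (SE; adjusted p = 1) there, and its difference between HCD-weaned and RD-weaned males was -1.59 ± 0.45 (SE; adjusted p = 0.535). Cartpt differed by 2.18 ± 0.53 (SE; adjusted p = 0.25), from 1.13 in HCD-weaned males to -1.05 in RD-weaned males in the authors' deposited tables. With the sign of the second table turned, the difference would be 0.07 ± 0.53 (SE) for Cartpt and -1.86 ± 0.45 (SE; adjusted p = 0.0708) for Hcrt. The difference passed the threshold for 1 of 12910 genes (0.00775%), Mir6236, or for 4 genes with the sign turned, and 496 genes had an unadjusted p under 0.05. The length trend was not of the same form there, with a median of -0.17 in the part with the shortest transcripts and 0.02 in the longest. In the females weaned onto chow, Calcr (-1.20 ± 0.28, SE; adjusted p = 0.0128), Irs4 (-1.13 ± 0.29, SE; adjusted p = 0.0344) and Myh6 (-1.53 ± 0.28, SE; adjusted p = 0.00035) were also called in the authors' deposited table, beside 0.346% of all genes tested there. Their sign was that of HCD-weaned males, if the groups of that table stand in the same order.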

How the data were processed

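Hypothalamic RNA was sequenced from libraries of the TruSeq Stranded mRNA kit, per the labels' protocols. The authors fitted DESeq on mm10 data, per the submitters' processing notes, and deposited 4 comparison tables; its version and the aligner, counter and annotation were not given in the sources used here. Per the file headers these hold the mean normalized count (a signal value), the log2 fold change, its SE, a Wald score, and p-values before and after adjustment. The Wald value equalled the log2 fold change over its SE, and Benjamini-Hochberg adjustment of the deposited p-values over the tested genes gave the deposited adjusted ones. The SE did not exceed 0.33, and the authors' deposited fold changes may be shrunken, which understates the change of low genes.

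The other 8 of 12 deposited files hold 48 library columns with running numbers that match no label. They were not used, so the planned count test with edgeR, a DESeq2 alternative and leaving out libraries were not run. Files on RD-weaned males hold 6 library columns each, against 7 samples in the labels. Depth per sample is not stated.

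Members and lists were chosen with earlier results of these data known. Of 1038 symbols in 42 lists, 984 were tested, and 40 lists had at least 3 tested members; lists were described by counts and medians, with no set test. Named genes were every called gene, the member of each list with the smallest p, the 5 genes just outside the threshold, and those called in a difference between tables. Gng8 (1.21) and Zkscan2 (-1.20) in the authors' deposited table complete those 5. Other members were named after their values were seen. Some genes under this rule are not reported here. Transcript length (the longest transcript) and GC content came from GENCODE M21 (GRCm38), matched by symbol for 14831 of 15384 genes (96.4%). The trend on length and GC content was a lowess curve with span 0.3. It was removed from log2 fold changes for list medians and from Wald values for calls. A difference between tables with 0 shared samples was divided by the root of the summed squared SEs and referred to the normal distribution, two-sided, with Benjamini-Hochberg adjustment. Intervals are 95%, as 1.96 SE. Scripts used Python 3.11.15, pandas 2.3.3, scipy 1.17.1 and statsmodels 0.14.6, and were tested on simulated data. Alternatives were an adjusted p under 0.10, no minimum, a minimum mean of 100, the statistic divided by its robust spread, centred fold changes and removal of the trend.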

Additional observations from a re-analysis of the deposited data

Results flagged for a closer look

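Mir6236, a short annotated RNA at chr9:110281287-110281409, differed between the postnatal diets in males: its maternal log2 fold change in HCD-weaned males exceeded that in RD-weaned males by 2.82 ± 0.55 (SE; adjusted p = 0.00379, normal test of the difference with Benjamini-Hochberg adjustment). The values were -0.46 ± 0.32 (SE) in HCD-weaned males and -3.28 ± 0.45 (SE) in RD-weaned males in the authors' deposited tables. In HCD-weaned males it was not called (adjusted p = 0.727), so the difference rests on the table of RD-weaned males. Rn45s, the ribosomal RNA precursor, stood at -0.31 ± 0.27 (SE) and -2.29 ± 0.45 (SE) in the same tables. The sign of the table of RD-weaned males rests on the order of its groups. With that sign turned, the difference for Mir6236 would be -3.74 ± 0.55 (SE; adjusted p = 1.29e-07), and Rn45s (-2.59 ± 0.53, SE; adjusted p = 0.00621), Zfp36l1 and Nmral1 would also pass.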

How the results depend on the processing

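An adjusted p under 0.10 called 32 genes (10 positive, 22 negative), and no minimum mean or centred fold changes called 24, losing Ccnb1ip1 in both cases. Adjustment over genes with a mean of 100 or more called 16 genes, 4 of them positive. The other 9 called genes have lower means and were not tested there. Rescaling Wald values by their robust spread (1.17) left 3 genes (0 positive, 3 negative), Oxt, Pmch and Hcrt. With the length and GC trend taken out of the Wald values, 16 genes were called (3 positive). Of these, 12 were shared with the 25 and 4 added (Otp, Trh, Sspo and Ubap1l). Removal of the trend from log2 fold changes turned the sign of 6 list medians. They became 0.0281 for leptin and insulin signalling, -0.0712 for microglia and complement and 0.046 for synaptic vesicle release. Those of astrocytes, oligodendrocyte precursors, and ependymal cells and tanycytes became -0.0177, 0.0146 and -0.0159. The other 35 list medians kept their sign, with that of voltage-gated channels at -0.0959, as did all 41 medians under centring and the minimum of 100. The cause of these changes was not tested. The gap between the shortest and longest part by transcript length was 0.62, and 0.70 over genes with a mean of 100 or more, an alternative chosen after seeing the data. For the difference from HCD-weaned females, dividing by the robust spread called 3 genes (Rpph1, Chrnb4 and Nwd2). For the difference from RD-weaned males, turning the sign of that table called 4 genes. No paired analysis was possible because the library columns carry no replicate number of the labels, and the groups share none (1 to 3 against 5 to 7). Leaving out libraries was not run for the same reason.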
